A study of Mus musculus with 28 samples.

Results

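The FoxA1 time course with anti-FLAG consists of the lists of binding events at 0, 6, 12, 24 and 48 h after doxycycline (Dox) removal, 1 library and 1 list per time. These are 5 of the 28 samples of the series and hold 31576 of the 162571 events in the 14 lists used here. The lists were taken by antibody and time from the sample titles. The cells were MC1 mouse embryonic stem (ES) cells of 129S6/SvEvTac background with a His6- and FLAG-tagged FoxA1 transgene at Rosa26 that Dox keeps silent. All 5 groups carry this transgene in 1 cell line, and the 0 h group is the same line before Dox removal. After Dox had been washed out, cells stayed in DMEM differentiation medium with 10% fetal bovine serum for the stated hours, so time in the medium and time of induction are the same variable here. Sites were mapped by ChIP-exo, in which lambda exonuclease digests immunoprecipitated DNA up to the crosslinked protein, with the antibody F1804 against the FLAG tag. A parallel course of the same factor with the antibody ab23738 against FoxA1 itself (anti-FoxA1) and combined 24 h lists of FoxA1, FoxC1, FoxL2 and FoxP3, each taken to join the libraries of 1 factor, served for comparison.

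FoxA1 is a forkhead transcription factor of endoderm and liver. It is known as a pioneer factor, one that can bind its site on DNA wrapped in nucleosomes, and its winged-helix domain reads a short A/T-rich word of which TGTTTAC is the usual form. ES cells are pluripotent, and FoxA1 is not one of the factors that define that state. The files hold binding events and no RNA, so the identity of the cells was not checked against expression markers.

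An event is a 1 bp position with a score of the event caller between 43 and 1000. Scores stop at 1000, and no source used here gives their scale, so they serve to order events within a list. Scores of different times or antibodies are also printed side by side as deposited. Whether they compare between lists is unknown, so a difference between them is not a measure of binding. A pair of events was taken as the same place when the members lay within 100 bp. An event of 24 h with a 48 h event at the same place is called held, one without is called lost, and a 48 h event without a 24 h event is called gained. With 1 library per time no difference could be tested against the spread of replicates. Sequencing depth is unknown, and intervals in parentheses are Wilson 95% intervals that cover counting error only.

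Promoter windows that held an event show what a bound place looks like in letters. The promoter table, from RefSeq on GRCm38.p6 (mm10), gave 32851 windows of 27025 genes, each running from 250 bp before to 50 bp after a transcript start. The forkhead word TGTTTAC and its forms TGTTTGC, then TATTTAC, then TATTTGC, were searched on both strands, and a window counted as holding a word with 1 or more matches. The stretches below lie upstream of the start and around the event, on the strand of the gene from 5′ to 3′, with forkhead words in capitals. The score given for a gene at a time is the highest of any event in its window, for anti-FoxA1 as well. The first set was chosen as windows with events at 12, 24 and 48 h, which are the places called longest. They are Trmt13 (chr3:116614705-116614825, minus strand), Lpar1 (chr4:58499435-58499555, minus strand), Rptn (chr3:93393458-93393578, plus strand), Stard10 (chr7:101316836-101316937, plus strand) and Pml (chr9:58249863-58249983, minus strand).
Trmt13: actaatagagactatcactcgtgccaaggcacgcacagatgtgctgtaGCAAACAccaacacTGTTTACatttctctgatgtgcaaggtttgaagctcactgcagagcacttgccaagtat
Lpar1: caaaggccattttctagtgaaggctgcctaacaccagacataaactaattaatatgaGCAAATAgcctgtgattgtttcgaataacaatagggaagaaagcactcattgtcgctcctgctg
Rptn: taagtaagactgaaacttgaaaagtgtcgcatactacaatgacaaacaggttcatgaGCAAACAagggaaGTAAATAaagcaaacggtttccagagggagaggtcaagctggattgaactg
Stard10: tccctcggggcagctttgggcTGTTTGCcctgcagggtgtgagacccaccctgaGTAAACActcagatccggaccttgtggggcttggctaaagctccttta
Pml: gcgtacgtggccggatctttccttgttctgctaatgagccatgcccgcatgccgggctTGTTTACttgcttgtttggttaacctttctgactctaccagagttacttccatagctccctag

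In each of these 5 stretches the 24 h event lay at most 16 bp from the centre of a forkhead word. In Lpar1, Rptn and Pml it lay on the word itself. Trmt13, a tRNA methyltransferase gene, scored 277 at 12 h and 1000 at both later times, with the 24 h event 178 bp upstream of the start. Lpar1, a receptor for lysophosphatidic acid, had 406, 977 and 680. Rptn, which encodes the epidermal protein repetin, had 155, 379 and 284, Stard10, a lipid transfer gene, had 126, 199 and 162, and Pml, the organiser of PML nuclear bodies, had 53, 174 and 56. All 5 scored highest at 24 h or tied there, and all 5 were also in the anti-FoxA1 lists at 12, 24 and 48 h.

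The second set shows windows with events at both 24 and 48 h, at 24 h alone or at 48 h alone. This is the contrast that most of the values below describe. For these windows lost and gained mean no event of the other time anywhere in the window, not within 100 bp. Events at both times but not at 12 h lay in Lyrm1 (chr7:119899861-119899981, plus strand) and Agr2 (chr12:35992704-35992824, plus strand). Lost events lay in Hyal1 (chr9:107576768-107576888, plus strand) and Nlrp4f (chr13:65205814-65205934, minus strand), and gained events in Gdpd4 (chr7:97919708-97919791, plus strand) and Spdef (chr17:27728952-27729059, minus strand).
Lyrm1: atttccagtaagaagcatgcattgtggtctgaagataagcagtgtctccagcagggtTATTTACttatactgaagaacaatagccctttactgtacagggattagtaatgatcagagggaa
Agr2: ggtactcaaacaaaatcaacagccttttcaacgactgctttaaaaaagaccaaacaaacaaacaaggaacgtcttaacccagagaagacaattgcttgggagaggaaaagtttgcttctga
Hyal1: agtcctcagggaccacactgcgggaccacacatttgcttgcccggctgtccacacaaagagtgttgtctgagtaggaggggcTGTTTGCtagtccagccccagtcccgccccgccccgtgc
Nlrp4f: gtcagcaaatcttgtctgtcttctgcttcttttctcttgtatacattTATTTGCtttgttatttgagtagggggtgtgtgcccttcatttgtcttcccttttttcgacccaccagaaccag
Gdpd4: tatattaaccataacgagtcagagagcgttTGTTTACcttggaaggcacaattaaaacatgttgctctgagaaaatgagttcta
Spdef: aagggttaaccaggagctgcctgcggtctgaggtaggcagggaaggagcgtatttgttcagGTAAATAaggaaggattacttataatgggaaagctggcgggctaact

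Lyrm1 scored 326 at 24 h and 321 at 48 h. Agr2, a protein disulfide isomerase gene of secretory epithelia, scored 320 and 572 with none of the 4 words in its stretch. The lost event of Hyal1, a hyaluronidase gene, had a score of 183 at 24 h, and that of Nlrp4f, an oocyte gene, had 107. Both windows had an anti-FoxA1 event at 48 h, with scores of 207 and 80. The gained events of Gdpd4 and of Spdef, an epithelial ETS factor, scored 54 each. Spdef had anti-FoxA1 events at 24 h (98) and 48 h (193), and Gdpd4 had none at either time. These windows are examples chosen after their scores and words were seen. Most were taken because they hold a word, and windows with higher scores, such as Rabgef1 (582, no word) and Gm13420 (a gained event of 97, no word), were passed over, so the set says nothing about how often a word is there.

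Over all windows, forkhead words were more frequent where an event lay than elsewhere. Of all 32851 windows, 13.5% (13.2–13.9) held a word. The share was 80.0% (54.8–93.0) in the 15 windows with a 12 h event, 59.8% (50.3–68.6) in the 107 with a 24 h event and 64.0% (54.2–72.7) in the 100 with a 48 h event. Windows with an event at both 24 and 48 h held a word in 48 of 72 cases (66.7%, 55.2–76.5), those with a 24 h event alone in 16 of 35 (45.7%, 30.5–61.8) and those with a 48 h event alone in 16 of 28 (57.1%, 39.1–73.5). These last 3 intervals overlap. Windows can overlap and share an event, and the intervals treat them as independent. The 28 windows with a 48 h event alone are of 23 genes. Several of them are nearly identical windows of Gm32940, with the same event (54) and the same word. TGTTTGC was the most frequent word at 24 h (34.6% of windows, against 5.07% of all), and TGTTTAC was in 15.9% (against 3.65%).

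Base composition moved with this result, since windows with a 24 h event had a median GC content of 49.3% and all windows 52.7%. Within GC classes the shares with a 24 or 48 h event were 60.6% under 45% GC (all windows 24.5%), 62.0% from 45 to 55% GC (15.5%) and 51.6% above (6.38%). The median distance from an event to the centre of the nearest word, in windows that had one, was 5.0 bp at 24 h and 9.0 bp at 48 h. Within 20 bp lay 71.6% (59.9–81.0) of these 24 h events and 63.6% (51.6–74.2) of those of 48 h. An event in several windows was counted in each of them. For the 12 such events of 12 h the median was 47.5 bp, and 5 of them (41.7%, 19.3–68.0) lay within 20 bp. Only 47 protein-coding genes had a 24 h event in a promoter window, so this describes a small and promoter-bound share of the sites.

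The number of events was 20 at 0 h, 17 at 6 h and 1656 at 12 h, and the late lists had 15984 (24 h) and 13899 (48 h). The early lists were short and mostly did not return, most of the 12 h events were in the later lists at their full length, and the 24 h list was the longest. Between 12 and 24 h the list grew 9.65-fold, and the 48 h list was 0.870 times as long as the 24 h list. Median scores of the 12, 24 and 48 h lists were 73.5, 96.0 and 92.0. At the ceiling of 1000 were 10, 272 and 213 events. List length depends on depth as well as on binding, and its part in these numbers was not tested.

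**Figure D1:**
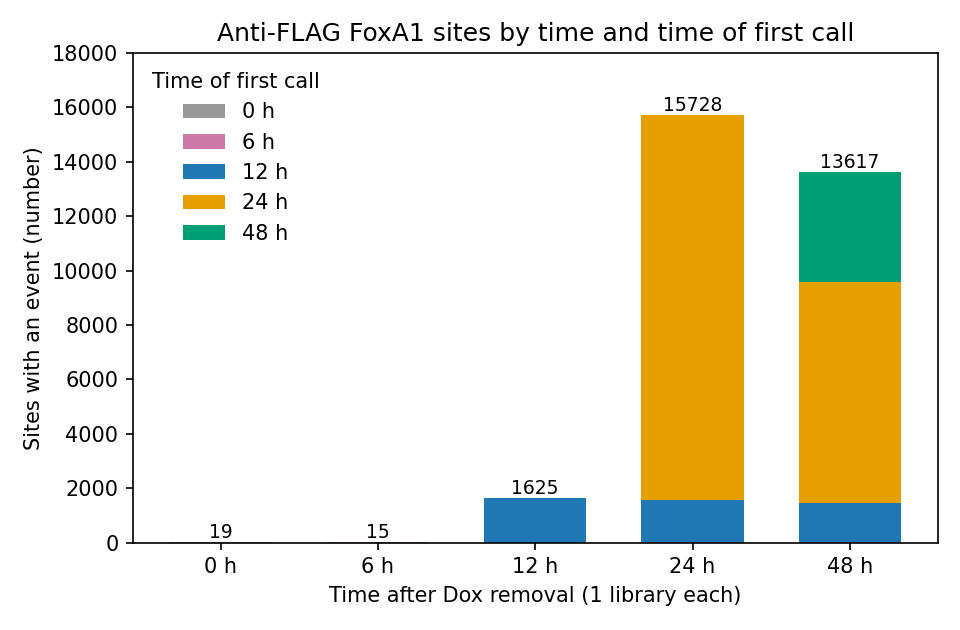
Number of sites with an anti-FLAG event at each time after Dox removal (1 library each), coloured by the time at which the site was first called. Sites first called at 24 h (orange) make up most of both late bars, 14177 of 15728 at 24 h, and 4035 of the 13617 sites at 48 h were first called there (green).

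At 0 h, before induction, 18 of the 20 events lay on the mitochondrial genome, at positions 282 to 12966 and with scores of 45 to 219. No later anti-FLAG list had a mitochondrial event. The remaining 2 were at position 45812369 of chromosome 14 (score 136, 154226 bp from Ddhd1) and at 35051316 of chromosome 8 (score 54, 85626 bp from Tnks). The first of these was called again at 24 h, with a score of 171, but not at 12 or 48 h. It was in no anti-FoxA1 list.

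At 6 h, 4 of the 17 events stood at places that were called at every later time and reached the ceiling at 12, 24 and 48 h. A pair lay 95 bp apart inside Stab2, a scavenger receptor gene of sinusoidal endothelium, at 86845493 and 86845588 of chromosome 10 with 6 h scores of 83 and 227. One lay inside Msrb3, a methionine sulfoxide reductase gene, at 120847452 of chromosome 10 (score 69), and 1 lay 10699 bp from Pecam1, an endothelial adhesion gene, at 106725980 of chromosome 11 (score 46). All 4 were called by anti-FoxA1 at 6 h as well, with scores of 231 in Stab2, 194 in Msrb3 and 82 at Pecam1. Another 6 h event, 236472 bp from Nphp4 at 152799656 of chromosome 4 (score 61), returned at 48 h with a score of 51.

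The other 12 events of 6 h were in no later anti-FLAG list and no anti-FoxA1 list. Their scores ran up to 264, that of an event far from any protein-coding gene on chromosome 12 (42972975, with a neighbour of score 136 at 42972957, 1017387 and 1017369 bp from Immp2l). The highest of the others was 230, on an unplaced contig. The rest, with scores of 43 to 84, lay inside Celf4 and Camta1 and outside Atp23, Fgf14, Tshz1, Usp12, Scgb2b21, Mrgprd and Rdx. A high score at 6 h was thus not a mark of return, since the scores of the 4 lasting events, 46 to 227, overlap those of the other events.

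The 10 events at the ceiling at 12 h all stood at ceiling places of 24 and 48 h. They lay at 6 places, of which 3 were the places in Stab2 and Msrb3 and near Pecam1 that had already been called at 6 h. The other places were inside Ccnt2, a cyclin of transcription elongation, inside Setd4, a SET-domain gene, and inside Dnaic1, a dynein chain gene of motile cilia. The event in Ccnt2 lay 2332 bp from a gene end, that nearest an end in Setd4 8133 bp and that in Dnaic1 7816 bp. A pair of 12 h events within 100 bp, as in Setd4 and Dnaic1, belongs to 1 place.

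Places called at 12 h were called again at later times more often than places first called at 24 h. Of the 1656 events of 12 h, 95.1% (94.0–96.0) were present at 24 h and 89.6% (88.1–91.0) at 48 h. Against only the 1656 highest-scoring events of 24 h, a list of equal length, the first share was 52.9%. Joined within 100 bp, the 5 lists made 19868 sites. Of these 8120 were called at 24 and 48 h, 6057 at 24 h alone, 4035 at 48 h alone and 1441 at 12, 24 and 48 h, of which 3 also at 6 h. Another 109 sites were called at 12 and 24 h, 55 at 12 h alone and 20 at 12 and 48 h. Of the 12 h sites called at 24 h, 7.03% (5.86–8.41) were absent at 48 h, and of the sites called at 24 h but not at 12 h 42.7% (41.9–43.5) were.

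The score moved with this difference. Sites of 12, 24 and 48 h had median scores of 76.0, 425 and 318 in time order, and sites of 24 and 48 h only had medians of 121 and 110.0. Among the 1441 lasting sites the score was lower at 48 h than at 24 h in 70.4%, and among the 8120 others in 53.3%. Sites called at 24 h alone had a median of 62.0 and those at 48 h alone 60. Repeat calls were close in position: the median offset was 7.0 bp between 24 and 48 h and 8.0 bp between 12 and 24 h, and 70.4% of the pairs of 24 and 48 h lay within 20 bp.

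Between 24 and 48 h, 9794 of the 15984 events of 24 h were held (61.3%, 60.5–62.0) and 6190 were lost. Of the 13899 events of 48 h, 4088 were gained (29.4%, 28.7–30.2). The share held was 30.2% (28.8–31.6) in the lowest of 4 score classes of equal size, 48.7% (47.2–50.2) and 72.8% (71.4–74.2) in the middle ones and 93.4% (92.6–94.1) in the highest. In 10 classes it ran from 27.3% to 98.1%. Read from 48 h back to 24 h the same order was seen, from 35.3% in the lowest of 10 classes to 99.1% in the highest. Lost events had a median score of 62.0, held events 144 and gained events 60. Of the 272 events at the ceiling at 24 h, 1 was lost, and none of the 213 at 48 h was gained.

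**Figure D2:**
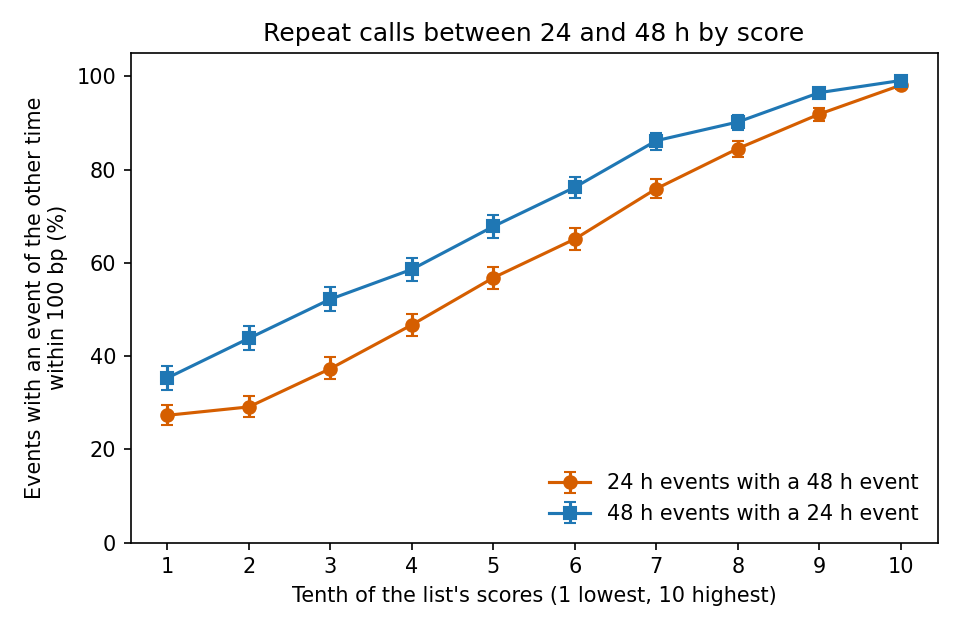
Percent of events with an event of the other time within 100 bp (y) in 10 classes of equal size by score (x, lowest to highest), for 24 h events at 48 h (orange circles) and 48 h events at 24 h (blue squares). Bars are Wilson 95% intervals. Both lines climb from the lowest class (27.3% and 35.3%) to the highest (98.1% and 99.1%).

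Some lost and gained events had an event of the other time just beyond the 100 bp limit. Of the lost events, 484 (7.82%) had a 48 h event beyond 100 and within 200 bp, and of the gained events 480 (11.7%) had a 24 h event there. That nearest event was itself at the place of another event for 239 of the 484 and 235 of the 480. Far from any event of the other time, by over 5000 bp, lay 71.8% of lost and 70.9% of gained events. Of the 10 lost events with the highest scores, chosen after the values were seen, 9 had a 48 h event within 157 bp. That at the ceiling, inside Taf4, a TFIID subunit gene, had one at 126 bp. The exception was inside Prkar2a, a regulatory subunit gene of protein kinase A, with a score of 718 and the nearest 48 h event at 16296 bp. An anti-FoxA1 event was there at 24 h (406) and at 48 h (122). Among the 10 highest gained events, 1 had no 24 h event within 149 bp, that of score 595 on chromosome 10 at 43777016, 97172 bp from Qrsl1 and 9012 bp from the nearest 24 h event. Anti-FoxA1 found it at 48 h (377) and not at 24 h.

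Many of the events lost with anti-FLAG were present in the anti-FoxA1 library of the same time. The anti-FoxA1 library of 48 h had 66.7% (65.5–67.9) of the lost and 95.8% (95.3–96.1) of the held events. Of gained events, 55.7% (54.1–57.2) had an anti-FoxA1 event at 24 h, before the anti-FLAG call. At 12 h anti-FoxA1 had called 42.5% of held, 24.4% (23.4–25.5) of lost and 8.64% (7.81–9.54) of gained events. At least 1 of the anti-FoxA1 lists of 24 and 48 h had 98.4% of held, 82.6% of lost and 82.4% of gained events. The anti-FoxA1 lists are longer, 35134 and 41726 events, which raises all these shares.

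Within score classes the order at 48 h stayed and that at 12 h did not. Among events with scores of 43 to 60, anti-FoxA1 at 48 h held 89.7% (87.9–91.3) of held and 59.2% (57.4–61.0) of lost events, and among those above 100 and up to 200 it held 96.9% (96.2–97.5) and 78.9% (76.3–81.3). At 12 h anti-FoxA1 had 16.2% (14.2–18.3) of held and 16.0% (14.7–17.4) of lost events in the first of these classes, 23.4% (21.7–25.3) and 24.2% (22.4–26) at scores of 61 to 100, and 38.0% (36.2–39.7) and 42.5% (39.5–45.6) above 100 and up to 200, so held events were not ahead of lost ones there. Lost and gained events of scores 43 to 60 differed at 12 h, with the 16.0% of lost and 7.67% (6.61–8.88) of gained events found by anti-FoxA1. Their scores come from different lists and may not compare. Combined FoxA1 events, which are from 24 h and share that time with the lost class, lay at 79.1% of held, 49.1% of lost and 42.5% of gained events.

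**Figure D3:**
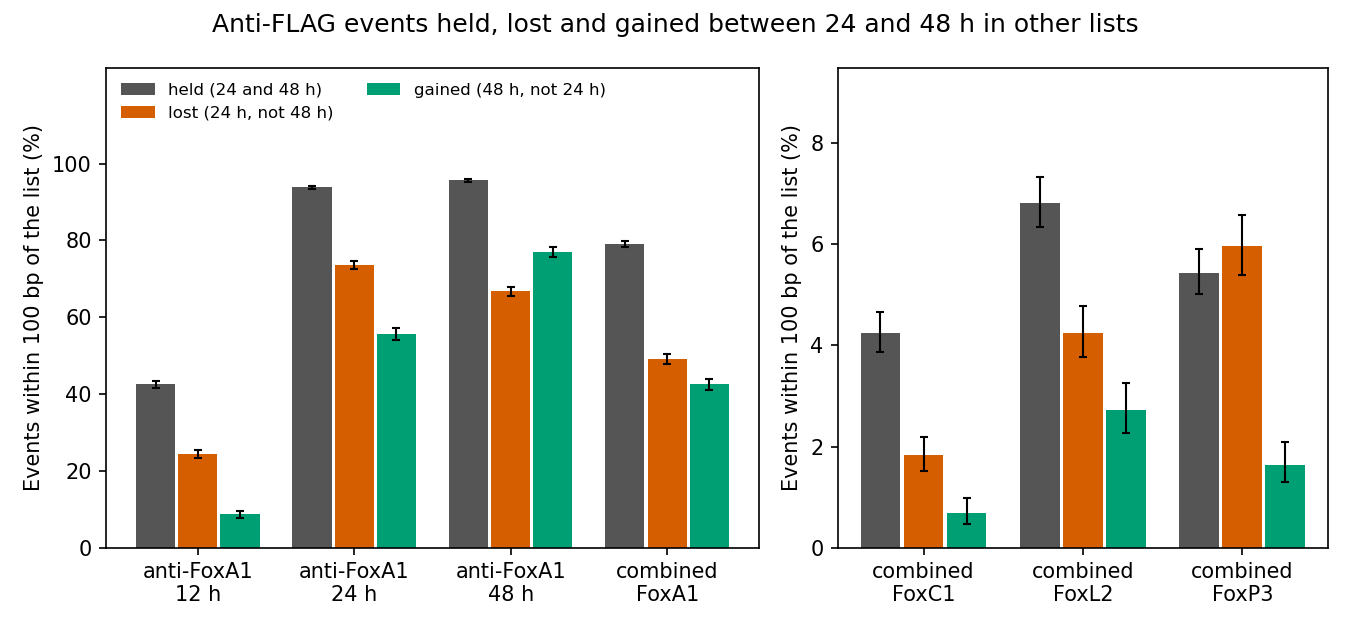
Percent of anti-FLAG events within 100 bp of an event in other lists (y), for events held (grey), lost (orange) and gained (green) between 24 and 48 h, with Wilson 95% intervals. The left panel has the anti-FoxA1 lists and the combined FoxA1 list, and the right panel, on its own scale, the combined 24 h lists of FoxC1, FoxL2 and FoxP3. Held events are the highest in each set except FoxP3, where lost events (5.96%) and held events (5.44%) have overlapping intervals.

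Other forkhead factors at 24 h had fewer of the gained events than of the held or lost ones. FoxP3, which directs regulatory T cells, coincided with 5.44% (5.01–5.91) of held, 5.96% (5.40–6.58) of lost and 1.64% (1.29–2.08) of gained events. FoxL2, a factor of granulosa cells, coincided with 6.82% (6.34–7.34), 4.25% (3.77–4.78) and 2.72% (2.26–3.26). FoxC1, a factor of mesenchyme, coincided with 4.25% (3.87–4.67), 1.83% (1.52–2.19) and 0.685% (0.474–0.988). For FoxP3 lost events were ahead of held ones within score classes, 4.40% (3.70–5.22) against 1.82% (1.21–2.74) at scores of 43 to 60 and 9.84% (8.16–11.8) against 5.61% (4.84–6.51) above 100 and up to 200. For FoxL2 the intervals of held and lost events overlapped in both classes, 4.56% (3.52–5.88) against 3.36% (2.76–4.10) and 5.96% (5.15–6.87) against 5.91% (4.62–7.53). For FoxC1 the difference between held and lost events was not seen within score classes, with 15 of 1207 (0.755–2.04%) against 35 of 2796 (0.901–1.74%) at 43 to 60, 1.97% (1.46–2.66) against 1.77% (1.29–2.41) at 61 to 100 and 2.53% (2.02–3.17) against 3.05% (2.16–4.30) above 100 and up to 200. The 24 h libraries of FoxC1, FoxL2 and FoxP3 were all made with anti-FLAG, as were the held, lost and gained events, so the antibody did not vary here. Time and library cannot be told apart as sources of the difference to the 48 h events.

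Held, lost and gained events had like shares at gene ends and differed in their shares inside genes. Gene ends, within 1 kb, took in 3.52% (3.17–3.90) of held, 3.19% (2.78–3.65) of lost and 3.26% (2.76–3.85) of gained events, with overlapping intervals. Inside genes, farther than 1 kb from an end, lay 4889 of 9782 held events (interval 49.0–51.0%), 45.9% (44.7–47.2) of lost and 52.7% (51.1–54.2) of gained events, so the share was lowest for lost events and the 3 intervals did not overlap. Median distances to a transcript start were 22977 bp for held, 23881 bp for lost and 24092 bp for gained events. Most FoxA1 events at all times were thus far from starts, and 3.13% (2.87–3.42) of 24 h events lay within 1 kb of one.

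The X chromosome held fewer of its events than the autosomes did. Of 243 events of 24 h on the X chromosome 49.4% (43.2–55.6) had a 48 h event, against 61.5% (60.7–62.3) on the autosomes, whose single values ran from 58.3% (chromosome 7) to 67.2% (chromosome 19). In each of the 4 score classes the X value was the lower one, with 14.0% (7.29–25.3) against 30.5% (29.0–31.9) in the lowest and overlapping intervals in the second and the highest. With anti-FoxA1 the X chromosome held 59.3% (55.4–63.1) and the autosomes 72.3% (71.8–72.8). The Y chromosome had 13 events at 24 h and 2 at 48 h, both of them at places of 24 h.

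A gene was counted as reached when an event lay within 50 kb of either end. Events deep inside long genes, beyond 50 kb from both ends, are not counted this way. Of the 21887 protein-coding genes, 0% were reached at 0 h and 9 genes (0.0411%) at 6 h, and the share was 9.81% for 12 h, 51.6% for 24 h and 49.1% for 48 h. Events at 12, 24 and 48 h were near 9.47% of the genes. A gene is called held when it was reached at both 24 and 48 h, lost when at 24 h alone and gained when at 48 h alone. The events of a held gene need not lie at the same place. Near Gata6, a held gene, 0 of the 2 events of 24 h were held. Between 24 and 48 h, 9401 genes were held (43.0%), 1896 were lost (8.66%) and 1338 were gained (6.11%). With the longer list reduced to its highest scores, at the length of the shorter, the order turned, with 1445 genes lost and 1711 gained. Loss and gain of genes rested mostly on 1 event, in 79.1% of lost and 84.8% of gained genes. Anti-FoxA1 had an event at 48 h within 50 kb of 92.7% of the genes lost with anti-FLAG, and at 24 h within 50 kb of 84.2% of those gained. For all genes these shares were 76.6% and 73.5%.

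The lost genes with the most events at 24 h had 4 or 5 of them, none scoring above 186. Gm41844, on chromosome 19, had 5 events with scores of 47 to 157 at 24 h, 1 of them already at 12 h (74), and no 48 h event within 127959 bp. Armh1 had 5 events scoring 87 to 138, and its neighbour Tmem53 shares part of them (4 events). Mog, the myelin oligodendrocyte glycoprotein gene, had 5 events scoring 47 to 61, the same 5 that reach H2-M5, Zfp57 and 2410137M14Rik, and its nearest 48 h event lay just outside the window at 50203 bp. Gm52481, on the Y chromosome, had 5 events of at most 59. The others, with 4 events each, were Gabpa, an ETS factor (highest score 186), Gm2001 (147), Gid8, a subunit of the GID ubiquitin ligase (142), Aurkc, the meiotic Aurora kinase (140), and Vpreb2, a surrogate light chain gene (127). Anti-FoxA1 had events at 48 h within 50 kb of 9 of these 10 genes, as of 76.6% of all genes. They ran from 4 near Gabpa to 9 near Mog, with none near Gm52481. At the lost places themselves it had at 48 h 2 of 5 near Armh1, and 3 of 5 near Gm41844 and Mog. It had 2 of 4 near Gm2001 and Tmem53, 3 of 4 near Gabpa, Aurkc and Vpreb2, and 4 of 4 near Gid8.

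The gained genes with the most events had 3 or 4 of them. Sdc1, the cell surface proteoglycan syndecan-1, had 4 events at 48 h with scores of 48 to 72, the nearest at 13428 bp, and its nearest 24 h event lay 75823 bp away. Another 9 genes had 3 events each, with highest scores of 54 to 117. They were Tmem218 (117), Gm20604 (106, with 5 genes that share its events), Glis3, a zinc finger factor of pancreas and kidney (104), Twist2, a bHLH factor of mesenchyme (96), Tectb, a protein of the inner ear (92, with Gucy2g), Itgb5, an integrin (81), Ube2r2 (76), Actr10 (76) and Odc1, the first enzyme of polyamine synthesis (54). All 10 had anti-FoxA1 events within 50 kb at 24 h, from 1 near Glis3 to 11 near Itgb5, as had 73.5% of all genes. At the gained places themselves anti-FoxA1 had fewer events at 24 h. It had 0 of 4 near Sdc1, and 1 of 3 near each of Glis3, Itgb5 and Odc1. It had 2 of 3 near each of Tmem218, Twist2, Tectb and Ube2r2, and 3 of 3 near Gm20604 and Actr10. The nearest 24 h anti-FLAG event to Tmem218 lay at 50695 bp, again just outside the window.

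Genes with the largest differences in number were held genes. Prdm14, a zinc finger regulator of naive pluripotency and germ cells on chromosome 1 (13113428–13127163), had 1, 18 and 8 events at 12, 24 and 48 h, the largest difference of any gene. At 24 h, 13 of the 18 events formed a stretch from 13071516 to 13085235 on 1 side of the gene, and the highest scores there were 424, 334, 265 and 226. Of the 18 events 7 were held, and 9 of the 11 lost ones had an anti-FoxA1 event at 48 h. The event with the highest score near Prdm14 at 48 h was another one, at 13099449 (210, with 168 at 24 h), while that of score 424 had 63 at 48 h. Near the gene anti-FoxA1 had 9, 23 and 21 events at these times.

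**Figure D4:**
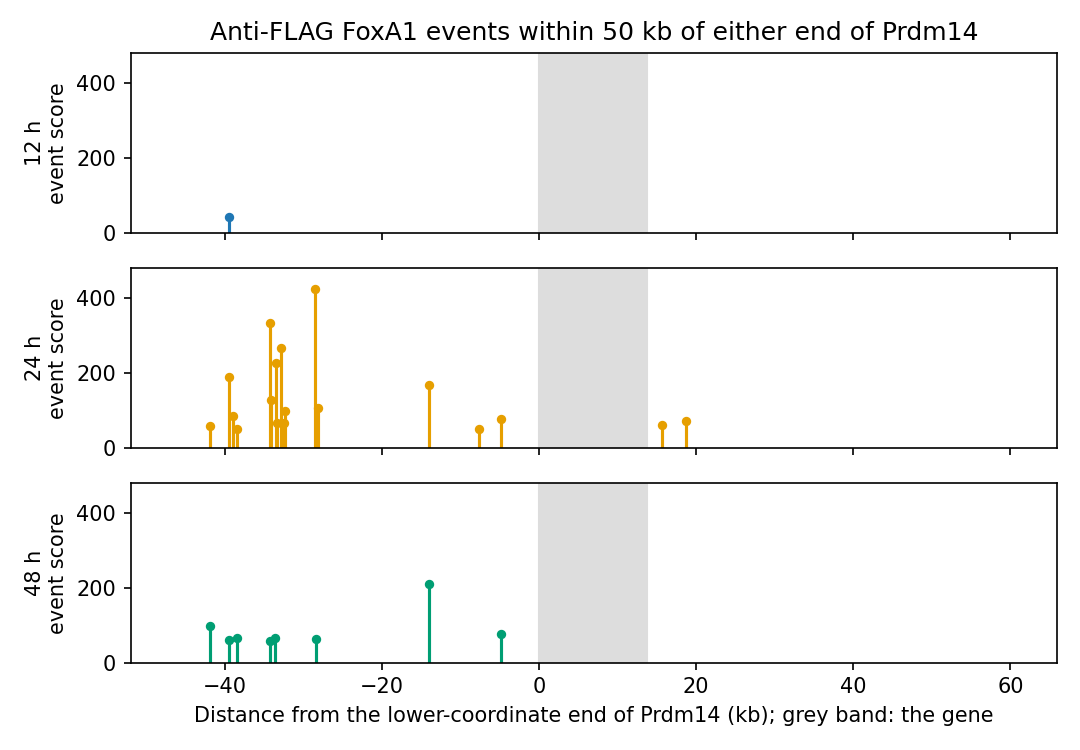
Anti-FLAG events within 50 kb of either end of Prdm14 at 12, 24 and 48 h (rows), with distance from the lower-coordinate end of the gene in kb (x) and event score (y). The grey band is the gene. The dense stretch of 24 h events at 28 to 42 kb from the gene has fewer and lower events at 48 h, and the event about 14 kb from it has the highest score at 48 h.

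Ddx55, a helicase gene, went from 9 events to 2, and Rilpl1 next to it, which shares most of them, from 11 to 4. At 24 h Ddx55 held a run of 8 events between 124563395 and 124565763 of chromosome 5 with scores of 254 to 711, and at 48 h it had 2 events, one at 124563472 (315), held at 77 bp from a 24 h event, and one at 124563795 (104), gained at 166 bp from the nearest. Of the 8 events lost near Ddx55, 1 had an anti-FoxA1 event at 48 h, unlike those of Prdm14. Etv5, an ETS factor induced by FGF signalling, went from 9 to 2, with 5 of its 7 lost events found by anti-FoxA1 at 48 h. Rel, an NF-kB subunit gene, went from 8 events to 1, none of them above a score of 102. With anti-FoxA1 Etv5 had 18 events at 24 h and 13 at 48 h, and Rel 10 and 9.

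The largest differences in the other direction were smaller. Taf6, a TFIID subunit gene, had 2 events at 24 h and 7 at 48 h, of which 6 were gained, 2 of these at 124 and 138 bp from a 24 h event. Zfp281, a zinc finger factor of ES cells, went from 4 to 8, with all 4 events of 24 h held and all 4 gained events found by anti-FoxA1 at 24 h. Cpd, a carboxypeptidase gene, went from 4 to 8, 1700028P14Rik from 7 to 11 and Memo1 from 3 to 7. For comparison, fewer events at 48 h than at 24 h were seen near 22.7% of all protein-coding genes and more near 14.0%. The highest 24 h scores near these 5 genes, 387 to 1000, were those of held events.

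Genes with many events at 12, 24 and 48 h were led by Cdk17, a cyclin-dependent kinase gene, with 6, 9 and 9 events, and by Gm21119 with 6, 13 and 9. At Cdk17 8 of the 9 events of 24 h were held, and 4 were at the ceiling. Zfp960 and Zfp97, neighbouring zinc finger genes on chromosome 17, had 5, 19 and 14 events and 5, 17 and 11 events at these times. Cox10, a cytochrome oxidase assembly gene, and Hs3st3b1, a heparan sulfate sulfotransferase gene, are neighbours and had 5 events at 12 h and 11 or 12 at 24 and 48 h. The others were Aff1 (5, 10 and 8), a subunit gene of the super elongation complex, 1700016H13Rik (5, 8 and 6), Cep57l1 (4, 8 and 8) and Kcnk5 (4, 11 and 8). Gene copies that resemble each other, such as Zfp960, Zfp97 and Gm21119, may share reads, which the files do not show.

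FoxA1's own gene, on chromosome 12, had no anti-FLAG event within 50 kb at any time, and the nearest lay 188026 bp away at 24 h and 139902 bp at 48 h. With anti-FoxA1 it had 2 events within 50 kb at 24 h and 2 at 48 h. The Rosa26 locus (Gt(ROSA)26Sor), where the transgene sits, had 2 events within 50 kb at 24 h and at 48 h, with scores of at most 120 and 47, and none inside it. The nearest lay 28914 bp from an end.

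Gene lists were described by counts of events within 50 kb, 24 h against 48 h, beside all protein-coding genes, for which the sum went from 24909 to 21479 (0.862 times). An event near several genes is counted for each. Genes of pluripotency had 80 events at 24 h and 53 at 48 h (0.662 times), with fewer at 48 h for 12 of the 20 genes, more for 1 and as many for 7 (fewer for 22.7% and more for 14.0% of all genes). These shares are not like for like. Genes with no event at either time, which cannot show fewer, were 15.0% of this list and 42.3% of all genes. The median number of events per gene at 24 h was 3.00 in this list and 1.00 for all genes. The share of their distinct 24 h events that were held was 52.5% (41.7–63.1), against 61.8% (60.9–62.7) near all genes. With anti-FoxA1 the sum for the same 20 genes went from 169 to 181 (1.07 times), where that of all genes went up 1.22 times. The lists were chosen with earlier results of these data known, and their counts are a description.

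Within the pluripotency list most genes had events at both times. After Prdm14, the most events were near Klf5, a Kruppel-like factor (11 at 24 h and 9 at 48 h, 6 of the 11 held), and Esrrb, an orphan nuclear receptor (10 and 7, all 7 at places of 24 h). The highest score near Esrrb was 670 at 24 h and 1000 at 48 h. Tbx3, a T-box factor, had 5 and 5 events, of which 3 were held. Klf2 had 2 events at 24 h, with scores of 158 and 46, and none at 48 h, and Utf1 had 1 (53) and none. All 3 of these lost events had an anti-FoxA1 event at 48 h. Fgf4, the FGF ligand of ES cells, was the gained gene, with scores of 48 and 84. Nanog, the homeobox factor of naive pluripotency, had events of 236, 61, 51 and 307 at 24 h and of 151 and 129 at 48 h, the latter at the 2 places that had scored highest. Pou5f1, which encodes Oct4, had 5 and 3 events, and Sox2 had 1 at each time (415 and 426).

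Genes of signalling feedback had 57 events at 24 h and 32 at 48 h (0.561 times), with fewer events at 11 of 20 genes and more at 1. Of these genes 35.0% had no event at either time (42.3% of all genes), and the 24 h median was 2.50 events (1.00 for all genes). Dusp6, a phosphatase of ERK, had 9 and 5 events, Etv5 9 and 2, Smad7, an inhibitor of TGF-beta signalling, 6 and 5, and Lefty1, a Nodal antagonist, 6 and 4. Lefty2 lies beside Lefty1 and shares events with it. Spry2, an inhibitor of receptor tyrosine kinase signalling, had 3 events (87 to 123) and then none, and Bambi, a BMP pseudoreceptor, had 1 (67) and then none. No gene of this list was gained, where 6.11% of all genes were, a share that is few among 20 genes. Fzd7, a Wnt receptor, was the gene with more events, 3 and 4, and its highest score was 308 at 24 h and 565 at 48 h. With anti-FoxA1 the list had 108 and 122 events (1.13 times).

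Genes of chromatin and DNA methylation had 76 and 49 events (0.645 times), fewer at 12 of 20 genes and more at 4. Of these genes 15.0% had no event at either time (42.3% of all genes), and the 24 h median was 3.00 events (1.00 for all genes). Jarid2, a Polycomb cofactor, had 16 events at 24 h and 10 at 48 h, 9 of the 16 held. Zmynd8, a chromatin reader, had 13 and 7, Hmga2, an architectural protein, 10 and 6, and Mta3, a NuRD subunit, 6 and 5. Lost were Smarca4, the BAF ATPase, with 4 events of 46 to 67, Suz12, a Polycomb subunit, with 1 (71) and Dnmt3l, a cofactor of DNA methylation, with 1 (138). All 4 events of Smarca4 had an anti-FoxA1 event at 48 h. Gained were Kdm4c (51) and Setdb1 (45), each with 1 event.

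Genes of the formative and primed epiblast had 48 and 30 events (0.625 times). Otx2, a homeobox factor, kept 7 of 8 events and had 8 at both times, and Foxd3 had 8 and 6. Grhl2, a factor of epithelial enhancers, went from 9 events to 3, with 5 of its 7 lost events found by anti-FoxA1 at 48 h, and Zic5 from 7 to 2 beside Zic2, which shares its events, from 6 to 2. Krt18 was lost (73) and Pou3f1 was gained (46), each by 1 event. In the list of primitive streak and mesoderm the sum was 17 and 14, with no gene gained (6.11% of all genes were). T, the streak factor brachyury, had 4 and 4 events with highest scores of 978 and 984, Nodal and Wnt3 had 3 and 2 each, Twist1 had 2 and 2, and Gsc lost its 1 event (47).

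The endoderm regulators, most of them transcription factors of the embryonic gut, had 30 and 21 events (0.70 times) near 13 of 20 genes at each time, a share of 65.0% where that of all genes was 51.6% at 24 h and 49.1% at 48 h. Foxa2, the closest relative of FoxA1, had an event 185 bp from a gene end at 24 h, with scores of 98 and 46 for its 2 events at 24 h and 126 and 72 at 48 h. Prox1, a homeobox factor of liver and lymphatic cells, had 6 and 3 events with a highest score of 745 and then 701, Gata4 had 3 and 4, and Gata6 2 and 2. The events near Gata6 were at other places at 48 h (48 and 81) than at 24 h (66 and 60), with none held. Cdx2 and Pdx1 share 3 events at 24 h and 1 at 48 h. Cxcr4, a chemokine receptor of definitive endoderm, lost 2 events (71 and 85), and Hhex gained 1 (52).

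Genes of liver secretion and metabolism had 37 and 34 events (0.919 times), and the ratio turned to 1.05 with the higher-scoring events alone. No gene of this list was lost, where 8.66% of all genes were, a share that is few among 20 genes. At 48 h 14 of 20 were reached (70.0%, against 49.1% of all genes). Alb, the albumin gene, had 1 event with scores of 202 and 390. Apoa1, the main protein of high-density lipoprotein, had 4 and 3 events with highest scores of 349 and 628, Ahsg 4 and 3 with 265 and 364, and F2, prothrombin, 4 and 3 with 431 and 378. Tat, tyrosine aminotransferase, had 3 and 2 events with 684 and 416, the nearest 259 bp from a gene end at 24 h. The fibrinogen genes Fga, Fgb and Fgg share a cluster of up to 5 events at each time. Apob (66) and Hp (56) were gained by 1 event each. Anti-FoxA1 had 60 events near this list at 24 h and 89 at 48 h, 1.5 times as many.

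Genes of the Forkhead family had 69 and 62 events (0.899 times) near 27 and 30 of 43 genes. These were 62.8% and 69.8% of the list, where 51.6% and 49.1% of all genes were reached. Foxd3 had 8 and 6 events, Foxj1, the factor of motile cilia, 7 and 6, Foxn3 6 and 6, and Foxp4 7 and 4. Lost were Foxl2 (56) and Foxr2 (54), and gained were Foxc1 (66), Foxi3 (60), Foxn4 (52), Foxo1 (48) and Foxp3 (67), each by 1 event. In shares, 4.65% were lost and 11.6% gained, against 8.66% and 6.11% of all genes. The lists of other tissues had few events. Neural progenitor genes had 20 and 14, among them Hes1 with 5 and 3, En2 with 3 and 2 and Dlx2 with 2 and 2, and Pax6 had a single event of 975 and then 736. Emx2 (61), Nes (109) and Neurod1 (48) were lost and Neurog1 (205) was gained. Trophectoderm genes had 30 and 19, with Tead4 at 5 and 4, Id2 at 5 and 2 and Cdh3 at 4 and 2, and Krt8 (73) and Tfap2c (107) were lost. Housekeeping genes had 22 and 15, with Ywhaz at 6 and 4, Gusb at 2 and 4 and Gapdh at 4 and 2, and those lost included Tbp (92) and Eef1a1 (48), while Tubb5 (47) was gained.

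**Figure D5:**
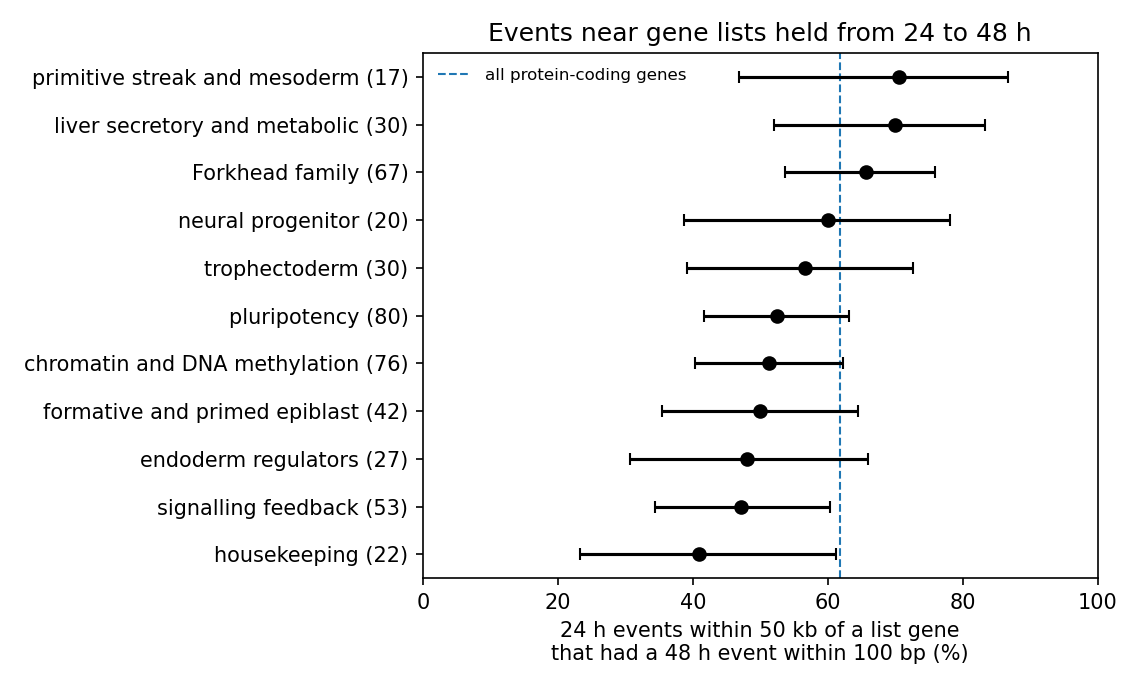
Percent of distinct 24 h anti-FLAG events within 50 kb of the genes of each list that had a 48 h event within 100 bp, with Wilson 95% intervals and the number of 24 h events in parentheses. The dashed line is the share near all protein-coding genes (61.8%). Signalling feedback (47.2%, 34.4–60.3) and housekeeping genes (40.9%, 23.3–61.3) lie below the line with their intervals, and the intervals of the other 9 lists cross it.

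The 24 h scores near the lists moved with these shares in part. The median 24 h score was 92.5 near pluripotency genes, 84.0 near feedback genes, 88.5 near chromatin genes and 118 near liver genes. It was 96.0 near all genes. The formative and primed epiblast list went the other way. Its median of 136 was the highest of the 11 lists, and its share held was below that of all genes (61.8%). Trophectoderm genes, with a lower median (74.5) than housekeeping genes (91.5), had a higher share held, 56.7% against 40.9%. The event sums of 9 of the 11 lists were below the ratio of all genes, housekeeping genes (0.682) included. This count was 8 within 20 kb, 10 within 100 kb, 7 with the higher-scoring events of each list and 11 with lists of equal length. With anti-FoxA1 the ratios ran from 1.07 for pluripotency to 1.5 for liver genes. The part of score, list length and library in these ratios was not tested.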

How the data were processed

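Binding events of tagged FoxA1 were measured by ChIP-exo in 5 libraries, 1 per time. The submitters' processing notes name BWA 0.7.17-r1188, Picard, SAMtools and the build mm10. ChExMix made the event lists, per the file headers, and its version, thresholds, control and filters are not given in those sources. The deposited value of an event is a score, a whole number per the file headers' event lists, with no scale given. Neither reads nor library totals are in the files, so depth is unknown. The combined lists of the other factors name the factor only.

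Positions were used as deposited. Events were matched within 100 bp with numpy 2.4.6 and pandas 2.3.3 (Python 3.11.15), and intervals came from SciPy 1.17.1 (Wilson, 95%). Sites joined events of the 5 lists at 100 bp. Genes (21887 protein-coding, chromosomes 1 to 19, X and Y) and promoter windows came from RefSeq tables of GRCm38.p6. The promoter table held no window of 1 chromosome. Matching was tested on simulated lists with known overlaps. With 1 library per time no test was made. The members and gene lists were chosen with earlier results of these data known. All 194 typed symbols of 10 lists matched; the Forkhead family (43 genes) was added by symbol. Some items of the series are not reported here.

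Named genes were, by rule, those nearest the 0 h and 6 h events and the 10 highest 12 h events, the 10 lost and 10 gained genes with the most events, the 10 with the highest smallest count over 12, 24 and 48 h, the 5 largest rises and falls, up to 4 members per list with the most events, every lost or gained member where there were at most 6, and Foxa1 and Rosa26. Genes with the same events counted as 1. Others named (promoter examples, strongest single events, further list members such as Nanog) were chosen after their values were seen. Alternatives used other distances, windows, chromosomes, higher scores and list lengths.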

Additional observations from a re-analysis of the deposited data

How the results depend on the processing

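No paired analysis was possible because every time has 1 library, and for the same reason no library could be left out. Autosomes alone moved no share beyond its interval and no gene count by 1.5 times. Events of 24 h held at 48 h (61.3%) were 53.5% within 50 bp, 64.3% within 200 bp, 64.8% with the higher-scoring events of each list and 66.5% with lists of equal length. Gained events (29.4%) were 38.7%, 26%, 25.1% and 33.4% in the same order. Events of 12 h present at 24 h (95.1%) were 84.9%, 97.6%, 97.7% and 52.9%, where equal length leaves 1656 events at 24 h. Lost events that anti-FoxA1 found at 48 h (66.7%) were 57.1%, 72.0%, 70.7% and 69.9%. Gained events that anti-FoxA1 found at 24 h (55.7%) were 50.4% within 50 bp, 57.2% within 200 bp and 58.5% with equal length. The gap between the highest and lowest of 4 score classes (63.2 percentage points) was 57.5 within 50 bp and 70.7 between the outer of 10 classes. With genes of all types (49943) lost genes were 4194 and gained genes 2955, and the other 5 gene settings left both counts within 1.5 times, although with lists of equal length gained genes (1711) outnumbered lost ones (1445). Of the ratios of events near genes, recomputed for 6 lists and all genes with settings chosen after seeing the data, that of liver genes (0.919) turned to 1.05 with the higher-scoring events and the other 6 stayed below 1. Forkhead genes (0.899, against 0.862 for all genes) fell below all genes within 20 kb (0.833 against 0.852), with the higher-scoring events (0.821 against 0.858) and with equal length (0.984 against 0.995), and liver genes did within 100 kb (0.841 against 0.866) and with equal length (0.971). With equal length the ratio of all genes was 0.995 and that of pluripotency genes 0.697. Depth is unknown, so an event absent from a list may have been below detection.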
